A study of Mus musculus with 12 samples.

Results

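The genes described are 10 cytochrome P450 genes of the Cyp2b and Cyp3a families in mouse liver, namely Cyp2b9, Cyp2b10, Cyp2b13, Cyp3a11, Cyp3a13, Cyp3a16, Cyp3a25, Cyp3a41a, Cyp3a44 and Cyp3a59. They were chosen by symbol from a table of 54532 genes, in which 18 rows carry a Cyp2b or Cyp3a symbol. The symbols had been selected on earlier results from the same FPKM values and diet groups. Which of these values decided the choice is not stated, and no threshold on a level or a fold change is given. The values and tests of the 10 genes are therefore given as a description and not as independent evidence that the families respond to diet.

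Liver RNA was sequenced from 12 male C57BL/6J mice, which started at 5 weeks of age and stayed on their diets for 26 weeks. There were 4 groups of 3 mice. ND-fed mice received normal chow, control mice a high-fat diet (HFD), and the other groups the same HFD with 1% HYA or with 1% linoleic acid (LA). HYA is 10-hydroxy-cis-12-octadecenoic acid, a fatty acid with a hydroxyl group formed from LA by bacteria of the gut, so that LA is its parent compound. All mice were wild type and of one sex, and the bulk liver RNA mixes every cell type of the organ.

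Cytochrome P450 enzymes of these families oxidise drugs, steroids and other fat-soluble compounds in the endoplasmic reticulum of hepatocytes. Their genes are classical targets of the nuclear receptors CAR (Nr1i3) and PXR (Nr1i2), which bind DNA with RXR as partner when foreign compounds or certain bile acids and steroids are present. Cyp2b10 is the usual readout of CAR and Cyp3a11 that of PXR. Cyp2b9, Cyp2b13, Cyp3a41a and Cyp3a44 are also known for higher expression in female than in male mouse liver, a pattern set by the rhythm of growth hormone, and Cyp3a16 is known as a form of the fetal liver.

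The table gives FPKM, that is fragments relative to gene length and a library total, on genome build GRCm38. The total implied by the values was not the number of fragments on genes. It was 15884206 against 17169064 in ND mouse 2 and 21503700 against 19558364 in control mouse 1. It was below the fragments in every ND-fed mouse and above them in every control and LA-treated mouse. The values thus carry a scaling that differs between diet groups, and rescaling to the fragments on genes was not tested. The fragments on genes numbered 17169064 to 25220880 per mouse, and mice of the same group correlated at 0.983 to 0.990 across genes. The 6 hepatocyte markers, among them Alb and Apob, were present in every mouse. Their summed level was 41100 to 42320 FPKM on ND, 27010 to 30870 in control mice, 34950 to 36130 with HYA and 30020 to 30420 with LA. Of the 6 intestinal markers, Cdx2 was at 0 in every mouse and 2 averaged over 1 FPKM, namely Fabp2 and Lgals4, and the sum was 62.6 to 79.1 FPKM on ND, 162.9 to 192 in control mice, 192.8 to 202.6 with HYA and 167.6 to 195 with LA. Fabp2, a fatty acid binding protein, made up most of it. Of the 5 pancreatic acinar markers 4 were at 0 in every mouse.

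Of the 10 genes, 7 reached an average of 1 FPKM across the 12 mice and entered the tests, namely Cyp2b9, Cyp2b10, Cyp2b13, Cyp3a11, Cyp3a13, Cyp3a25 and Cyp3a59. These 7 did not move as one family. Cyp2b9 and Cyp2b13 were low on ND and high on HFD, whereas Cyp2b10 and the 4 Cyp3a genes were highest on ND. HYA-treated mice had lower Cyp2b9 than control mice and lower Cyp2b9 and Cyp2b13 than LA-treated mice, while Cyp3a11 in HYA-treated mice stayed at the low level of control mice.

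The Cyp2b genes lie on chromosome 7 on the plus strand, Cyp2b10 at 25897620 to 25926624, Cyp2b13 at 26061497 to 26096197 and Cyp2b9 at 26173411 to 26210661. Between Cyp2b13 and Cyp2b9 there are 77.2 kb. The Cyp3a genes lie on chromosome 5. Cyp3a13 stands alone at 137892932 to 137921619, and 6 others lie between 145436309 and 146113287 in the order Cyp3a16, Cyp3a41a, Cyp3a44, Cyp3a11, Cyp3a25 and Cyp3a59. Cyp3a59 is the one of them on the plus strand, so that it and Cyp3a25 start back to back with 69.6 kb between them.

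Promoter windows of 300 bases, from 250 before to 50 after the start site, were found for all 10 genes in RefSeq on GRCm38.p6. The 4 stretches that follow are shown because the paired genes also had the closest standardised profiles over the 12 mice, although their levels differed. The windows of Cyp2b9 and Cyp2b13 were 99.3% identical, with 2 mismatches in 300 aligned bases and no gap. The stretch of Cyp2b9 is chr7:26173159-26173408 and that of Cyp2b13 is chr7:26061245-26061494, both on the plus strand and both printed 5′ to 3′ with the bases that differ in capitals.
Cyp2b9: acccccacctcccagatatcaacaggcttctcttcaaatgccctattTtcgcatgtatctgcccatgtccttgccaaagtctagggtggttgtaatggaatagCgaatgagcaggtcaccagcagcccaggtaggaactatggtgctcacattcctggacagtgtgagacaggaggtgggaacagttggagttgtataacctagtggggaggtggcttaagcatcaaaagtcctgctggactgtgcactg
Cyp2b13: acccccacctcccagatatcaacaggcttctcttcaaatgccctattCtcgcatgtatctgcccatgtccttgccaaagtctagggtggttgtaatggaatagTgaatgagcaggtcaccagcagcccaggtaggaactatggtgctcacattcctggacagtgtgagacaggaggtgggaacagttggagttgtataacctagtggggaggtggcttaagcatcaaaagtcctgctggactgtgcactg

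The windows of Cyp3a25 and Cyp3a59 were 96.3% identical, with 11 mismatches. Their stretches are chr5:146009619-146009868 on the minus strand and chr5:146079008-146079256 on the plus strand, and capitals again mark the bases that differ between the pair.
Cyp3a25: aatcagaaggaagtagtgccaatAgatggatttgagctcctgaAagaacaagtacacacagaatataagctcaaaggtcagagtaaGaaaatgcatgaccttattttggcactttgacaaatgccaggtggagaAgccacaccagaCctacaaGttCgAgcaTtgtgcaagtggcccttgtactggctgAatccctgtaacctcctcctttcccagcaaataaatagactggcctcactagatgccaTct
Cyp3a59: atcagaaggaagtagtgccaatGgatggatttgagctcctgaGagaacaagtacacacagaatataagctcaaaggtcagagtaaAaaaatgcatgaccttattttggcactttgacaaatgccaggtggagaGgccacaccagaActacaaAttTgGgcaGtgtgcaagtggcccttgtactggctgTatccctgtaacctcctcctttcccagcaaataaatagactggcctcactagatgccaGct

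Cyp2b10 was further away, with 74.6% identity to Cyp2b9 and to Cyp2b13, and windows of a Cyp2b and a Cyp3a gene shared 47.5% to 51.9%. The windows of Cyp3a11 and Cyp3a59 shared 56.6%, although their profiles were nearly as close as those of Cyp3a25 and Cyp3a59. The stretches of Cyp2b10 (chr7:25897408-25897619, plus strand) and Cyp3a11 (chr5:145879965-145880104, minus strand) are shown as the usual readouts of CAR and PXR, with matches to the short nuclear receptor motifs AGGTCA and AGTTCA and to TTCNNNGAA in capitals.
Cyp2b10: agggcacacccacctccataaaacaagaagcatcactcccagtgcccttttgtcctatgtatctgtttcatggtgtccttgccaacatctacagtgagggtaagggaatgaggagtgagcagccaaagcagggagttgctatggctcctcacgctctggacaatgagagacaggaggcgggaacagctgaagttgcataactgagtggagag
Cyp3a11: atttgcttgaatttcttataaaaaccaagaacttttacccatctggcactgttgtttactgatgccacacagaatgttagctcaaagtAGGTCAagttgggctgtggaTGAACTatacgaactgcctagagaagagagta

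On either strand, AGGTCA was present in the windows of 6 of the 10 genes (Cyp2b9, Cyp2b13, Cyp3a11, Cyp3a25, Cyp3a44 and Cyp3a59), and in 16.3% of all 32851 promoter windows of the same length. In Cyp2b9 and Cyp2b13 it began at 138 bases before the start site, and in Cyp3a11 at 162. AGTTCA was present in Cyp3a11 and Cyp3a41a and in 14.0% of all windows, and in Cyp3a11 it was on the other strand, where it reads TGAACT. The paired forms built from these short motifs were searched on both strands as well, namely AGGTCA repeated after 4 bases, AGTTCA repeated after 4 bases, and TGAACT followed after 6 bases by AGTTCA. None of them was in the 10 windows, and they were in 0.02%, 0.01% and 0.01% of all windows. TTCNNNGAA, the letters of a STAT5 motif, was in none of the 10 and in 8.30% of all windows. These matches describe letters within 300 bases only and do not show binding.

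Cyp3a11 was the most abundant of the 10 genes. Its levels were 1006, 980 and 887 FPKM in ND-fed mice and 279, 246 and 277 in control mice. The levels were 257, 236 and 264 in HYA-treated mice and 353, 316 and 320 in LA-treated mice. Every mouse on HFD, with or without a supplement, was below every ND-fed mouse, and by mean level Cyp3a11 went from rank 61 of all genes on ND to rank 153 in control mice.

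Cyp3a25, a form of adult liver, had 369, 393 and 372 FPKM in ND-fed and 196, 211 and 176 FPKM in control mice. It had 233, 249 and 270 FPKM in HYA-treated and 183, 226 and 238 FPKM in LA-treated mice. The HYA-treated mice were all above the control mice and all below the ND-fed mice, whereas the LA-treated mice overlapped with both other HFD groups.

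Cyp3a13, which is expressed in liver and in intestine, varied least. It had 48.5, 51.7 and 50.2 FPKM on ND, 34.7, 43.0 and 33.9 in control mice, 42.1, 39.7 and 47.2 with HYA and 34.5, 34.3 and 35.9 with LA. ND-fed mice were above all others, and HYA-treated mice overlapped with control mice but were above all LA-treated mice.

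Cyp3a59, the neighbour of Cyp3a25, had 25.7, 25.7 and 28.9 FPKM on ND and 11.8, 13.4 and 10.97 in control mice. With HYA it had 11.6, 13.4 and 12.8 FPKM and with LA 10.8, 12.1 and 13.1. The 3 HFD groups overlapped with each other and lay below ND.

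Cyp2b9 was the most abundant Cyp2b gene. Its levels were 6.10, 10.1 and 8.19 FPKM in ND-fed and 96.7, 86.2 and 69.7 in control mice. They were 33.5, 36.8 and 52.2 FPKM with HYA and 95.2, 101 and 104 with LA. The HYA-treated mice lay between the ND-fed and the other HFD-fed mice with no overlap on either side, and LA-treated and control mice overlapped. Its rank among all genes by mean level was 4155 on ND, 525 in control mice, 1102 with HYA and 432 with LA.

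Cyp2b13 had the same order of groups at a lower level, with 0.334, 0.403 and 0.297 FPKM on ND and 5.11, 4.42 and 3.32 in control mice. It had 1.73, 1.06 and 2.85 FPKM with HYA and 5.25, 6.40 and 7.20 with LA. No pair of groups overlapped, and the highest group was LA. The ratio of Cyp2b9 to Cyp2b13 was between 14.5 and 34.8 in each mouse.

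Cyp2b10, the usual readout of CAR, was low in every group, with 18 to 95 fragments per mouse. Its levels were 2.56, 2.24 and 1.63 FPKM on ND, 0.396, 0.820 and 0.594 in control mice, 1.00, 0.757 and 1.13 with HYA, and 0.977, 0.910 and 0.701 with LA. The 3 HFD groups overlapped, and all 9 of those mice were below the ND-fed mice.

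**Figure D1:**
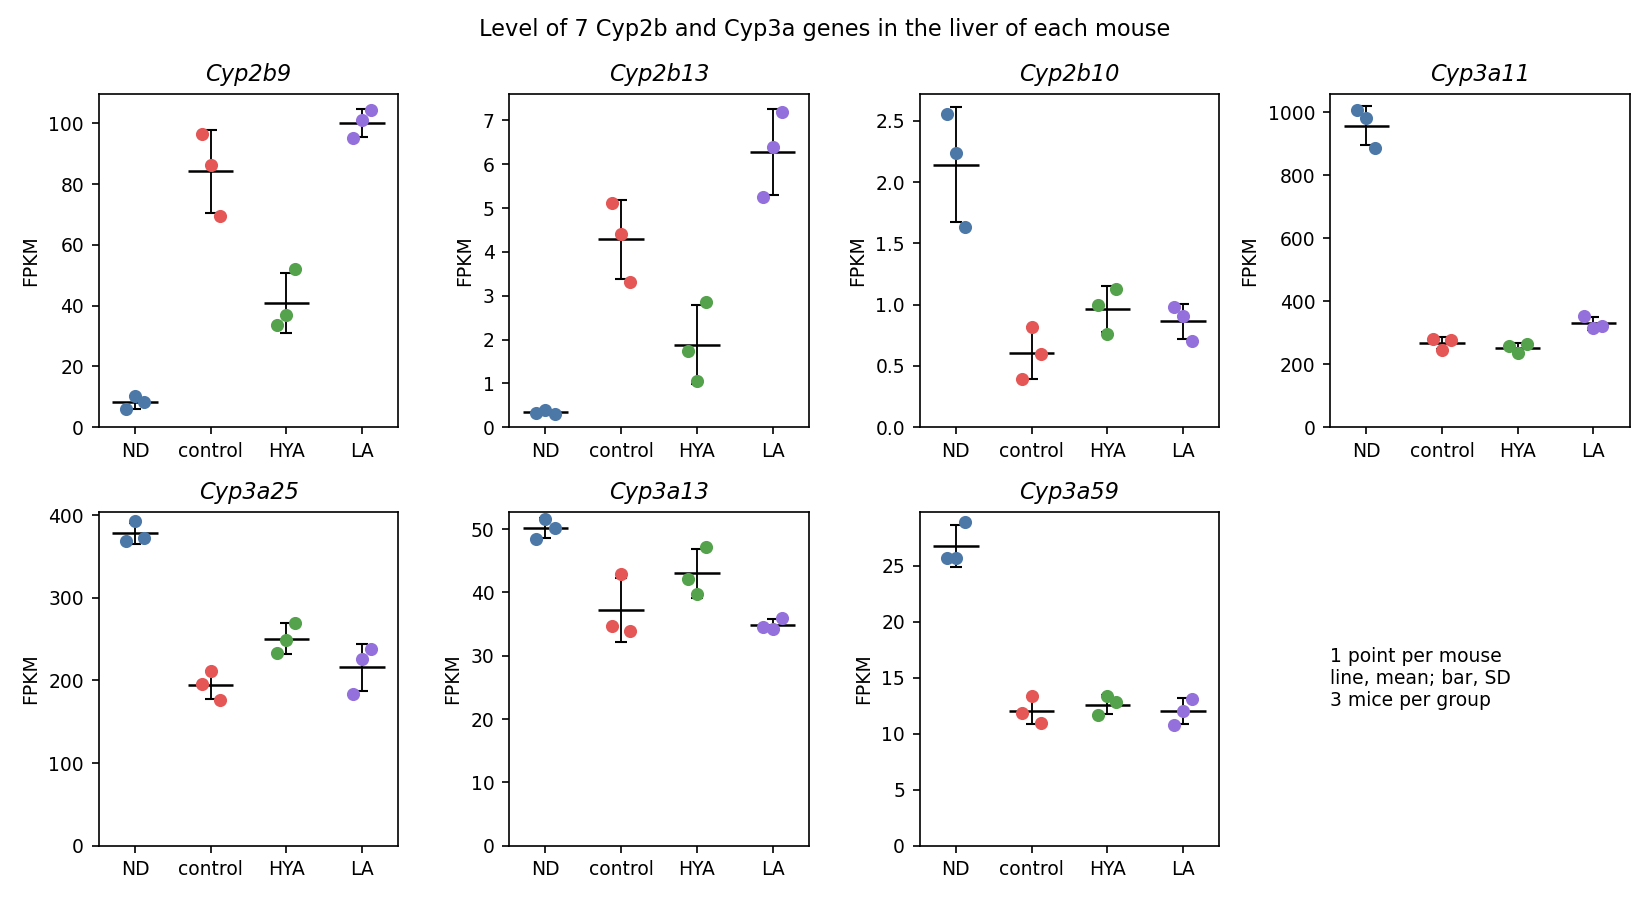
FPKM (y axes, linear from 0, each gene on its own scale) of 7 Cyp2b and Cyp3a genes in each mouse by diet group (x axes), with the mean as a line and the SD as a bar for 3 mice per group. Cyp2b9 and Cyp2b13 are lowest on ND and lower with HYA than in control or LA-treated mice, and the other 5 genes are highest on ND.

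The remaining 3 genes were close to 0, where 3 fragments in 1 mouse were taken as the floor for counting error. Cyp3a16 had 10 fragments in ND mouse 3, 1 in ND mouse 2, 1 in LA mouse 2 and none in the other 9 mice. Cyp3a44 had 9 fragments in LA mouse 2 and at most 2 in any other mouse. No fold change is given for either gene, since no group had more than 1 mouse above the floor, which for these genes is 0.0619 to 0.109 FPKM.

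Cyp3a41a was at 0 in every mouse, with a floor of 0.0589 to 0.0917 FPKM. Of the stretches of 50 bases in its transcript, 98.6% occur in another gene, 93.7% in Cyp3a41b, which had 2 fragments in control mouse 3 and 1 in LA mouse 3. How reads shared by related genes were counted is not given in the sources used here, so that 0 fragments is no evidence on the level of Cyp3a41a. Among the other rows of the families, Cyp3a57 had 0 fragments in each ND-fed mouse, 10, 2 and 10 in control mice, 0, 3 and 1 with HYA and 7, 6 and 3 with LA. Cyp2b26-ps, Cyp2b27-ps and Cyp3a63-ps had at most 2 fragments in any mouse, and Cyp2b19, Cyp2b23 and Cyp3a61-ps1 had none.

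Shared sequence touched the tested genes less. Of stretches of 50 bases, 11.2% in Cyp2b9, 9.70% in Cyp2b10, 27.3% in Cyp2b13 and 14.8% in Cyp3a11 also occurred elsewhere, and Cyp3a13 had none. Cyp3a25 and Cyp3a59 shared 25.0% and 24.7% of theirs with each other. The gene that shared most with Cyp2b13 was Gm45225, with 13.8%, and its level is not given here. The part of reads from Gm45225 or from more abundant relatives in the levels of Cyp2b13 and Cyp3a59 was not tested. Cyp2b13 also overlaps Rnf170-ps, with up to 3.08 FPKM, and Cyp3a13 overlaps Gm15502, with up to 8.56 FPKM, each on the same strand.

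Control mice were compared with ND-fed mice to see what HFD did to the 2 families. Groups were compared with limma on log2(FPKM + 1) over 11083 genes that averaged 1 FPKM or more, and a gene was called changed at a Benjamini-Hochberg adjusted p under 0.05 and a difference above 1 in either direction on that scale, which understates the change of genes of low level. Cyp2b9 and Cyp2b13 rose, and Cyp3a11 and Cyp3a59 fell. Of all genes tested, 2.25% were called higher and 1.63% lower in this comparison. By adjusted p alone 2 of the 7 genes were higher and 5 lower, against 16.2% and 19.1% of all genes. The ranges of the 2 groups were apart for all 7, which 19.9% of all genes showed as higher and 25.7% as lower.

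Cyp2b9 rose by 3.23 ± 0.19 on the log2 scale (SE, adjusted p = 1.33e-06), from a mean of 8.13 ± 2.0 FPKM (SD, n = 3) to 84.2 ± 13.6, a ratio of mean levels of 10.4. Cyp2b13 rose by 1.96 ± 0.20 (adjusted p = 5.19e-05), from 0.345 ± 0.054 to 4.28 ± 0.90 FPKM, a ratio of 12.4. Its smaller log2 difference at a larger ratio comes from the added 1 FPKM.

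Cyp3a11 fell by 1.84 on the log2 scale (SE 0.08, adjusted p = 1.32e-07), from 958 ± 63 to 267 ± 18 FPKM, which is 3.58-fold lower. Cyp3a59 fell by 1.09 (SE 0.09, adjusted p = 1.18e-05), from 26.7 ± 1.9 to 12.0 ± 1.2 FPKM, 2.22-fold lower. With values rescaled to TPM the difference of Cyp3a59 was -0.90 and no longer past the threshold on size. TPM moved the median of all genes from -0.04 to 0.17.

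Cyp3a25, Cyp2b10 and Cyp3a13 passed the adjusted p but not the size threshold. Cyp3a25 differed by -0.96 (95% interval -1.18 to -0.74, adjusted p = 6.14e-05), with 378 ± 13 FPKM on ND and 194 ± 17 in control mice. Cyp2b10 differed by -0.97 (-1.26 to -0.67, adjusted p = 0.000322), with 2.14 ± 0.47 and 0.604 ± 0.212 FPKM. The ratio of means of Cyp2b10 was 3.55, and with a pseudocount of 0.1 its log2 difference was -1.70 and called. Cyp3a13 differed by -0.43 (-0.62 to -0.23, adjusted p = 0.00385). With TPM Cyp2b10 was called (-1.19), and Cyp3a13 differed by -0.20 with an adjusted p of 0.0761. Leaving out control mouse 2 raised the number of genes called lower from 2 to 4, with Cyp2b10 and Cyp3a25 added.

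In bulk liver, fewer hepatocytes and less RNA per hepatocyte cannot be told apart, and the hepatocyte marker sums given above were lower in control than in ND-fed mice. Most of those sums was Alb, with means of 29220 FPKM on ND and 20500 in control mice. The fall was uneven, since Serpina1c averaged 2460 and 699 FPKM, Apoa1 4704 and 4146, and Apob 666 and 589. Ttr and Tat were lower in control mice too. The 8 pericentral markers, which include Glul and Cyp2e1 and mark the zone where many P450 genes are highest, summed to 4129 to 4477 FPKM on ND, 2273 to 3267 in control, 3729 to 4690 with HYA and 2077 to 3242 with LA. Most of this sum was Cyp2e1, with means of 3195 FPKM on ND and 1800 in control mice. Cyp1a2 (277.5 and 90.3 FPKM), Oat (492 and 334), Slc1a2 (17.0 and 14.8) and Lgr5 (1.43 and 0.822) were also lower in control mice. The means of Glul were 329.5 and 454 FPKM, and those of Rhbg and Axin2 were higher in control mice as well. The 7 periportal markers summed to 2534 to 2997 FPKM on ND, 1751 to 2488 in control, 2072 to 2440 with HYA and 1670 to 1911 with LA. Of these, Sds, Pck1 and Hsd17b13 had higher means in control than in ND-fed mice. The 6 cholangiocyte markers summed to 19.1 to 27.8 FPKM on ND, 78.01 to 171.7 in control mice, 38.6 to 52.5 with HYA and 81.4 to 134.6 with LA, most of it Spp1, while Krt19 averaged 0.746, 0.897, 0.654 and 1.05 FPKM. The 7 stellate cell markers, which include the collagen genes Col1a1 and Col3a1, summed to 21.15 to 27.3, 53.5 to 74.2, 39.97 to 48.98 and 58.8 to 74.6 FPKM in the same order. The order of these last sums over ND, HYA and the other HFD groups was that of Cyp2b9 and Cyp2b13. Among the stellate markers Col1a1, Col3a1, Rgs5 and Acta2 had this order, but Lrat and Reln did not. Lrat averaged 4.71 FPKM on ND, 6.99 in control, 8.15 with HYA and 6.76 with LA. Reln averaged 3.81, 4.85, 5.20 and 5.33 FPKM in the same order, and Des varied little (1.37, 1.54, 1.47 and 1.54 FPKM). The part of these shifts in the levels of the P450 genes was not tested.

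HYA-treated mice were compared with control mice to see what the metabolite changed on HFD. One of the 7 genes was called, Cyp2b9, which fell by 1.04 on the log2 scale (SE 0.19, adjusted p = 0.0271, limma), from 84.2 ± 13.6 to 40.9 ± 9.97 FPKM, 2.06-fold lower. Of all genes 0.144% were called lower and 0.162% higher. Cyp2b13 differed by -0.91 (95% interval -1.35 to -0.46, adjusted p = 0.0447), with 4.28 ± 0.90 FPKM in control and 1.88 ± 0.90 with HYA, and so passed the adjusted p, as 1.23% of all genes did in this direction, but not the size threshold. For both genes the HYA-treated mice were all below the control mice, which 8.87% of all genes showed. In HYA-treated mice the mean of Cyp2b9 was still 5.03 times and that of Cyp2b13 5.46 times that of ND-fed mice, a pair of groups that was not tested.

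The call of Cyp2b9 was lost without control mouse 1 (-0.93), HYA mouse 1 (-0.91) or HYA mouse 2 (-0.98), and it was also lost in a fit of only the 2 groups (adjusted p = 0.139) and with no filter on low values (0.0584). Without HYA mouse 2 and with only the 2 groups, 0 of all genes were called in either direction. The adjusted p of Cyp2b9 (limma) ran from 0.00821 to 0.139 over the alternatives, and its difference was negative in each of them. For Cyp2b13 the adjusted p ran from 0.0303 to 0.182 (0.0993 with no filter, 0.176 with only the 2 groups), and the gene passed both thresholds with TPM (-1.22), with voom on fragments (-1.21) and without HYA mouse 3 (-1.14).

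None of the Cyp3a genes was called with HYA. Cyp3a11 differed by -0.08 (95% interval -0.25 to 0.09, adjusted p = 0.637), so that a return of the 1.84 units lost on HFD lay outside the interval. Cyp3a25 differed by 0.36 (0.14 to 0.59, adjusted p = 0.0806) with ranges that did not overlap, which 12.7% of all genes showed in this direction. Cyp3a13 differed by 0.21 (0.01 to 0.40), Cyp3a59 by 0.06 (-0.13 to 0.26) and Cyp2b10 by 0.30 (0.00082 to 0.59), with adjusted p of 0.239, 0.780 and 0.268.

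LA-treated mice were compared with the same control mice to see what the parent fatty acid changed. None of the 7 genes was called and limma called 0% of all genes, while 294 genes (2.65%) had an unadjusted p under 0.05. The 95% intervals of 5 of the 7 differences took in 0. Cyp2b9 differed by 0.26 (-0.15 to 0.68), Cyp3a25 by 0.14 (-0.08 to 0.37), Cyp2b10 by 0.22 (-0.07 to 0.52), Cyp3a13 by -0.08 (-0.28 to 0.11) and Cyp3a59 by -0.01 (-0.20 to 0.19). Cyp3a11 differed by 0.30 (0.13 to 0.47) and Cyp2b13 by 0.47 (0.02 to 0.91), with unadjusted p of 0.00237 and 0.0404 and an adjusted p of 0.999 for each. These last genes had LA-treated mice all above control mice, which 3.94% of all genes showed in this direction.

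**Figure D2:**
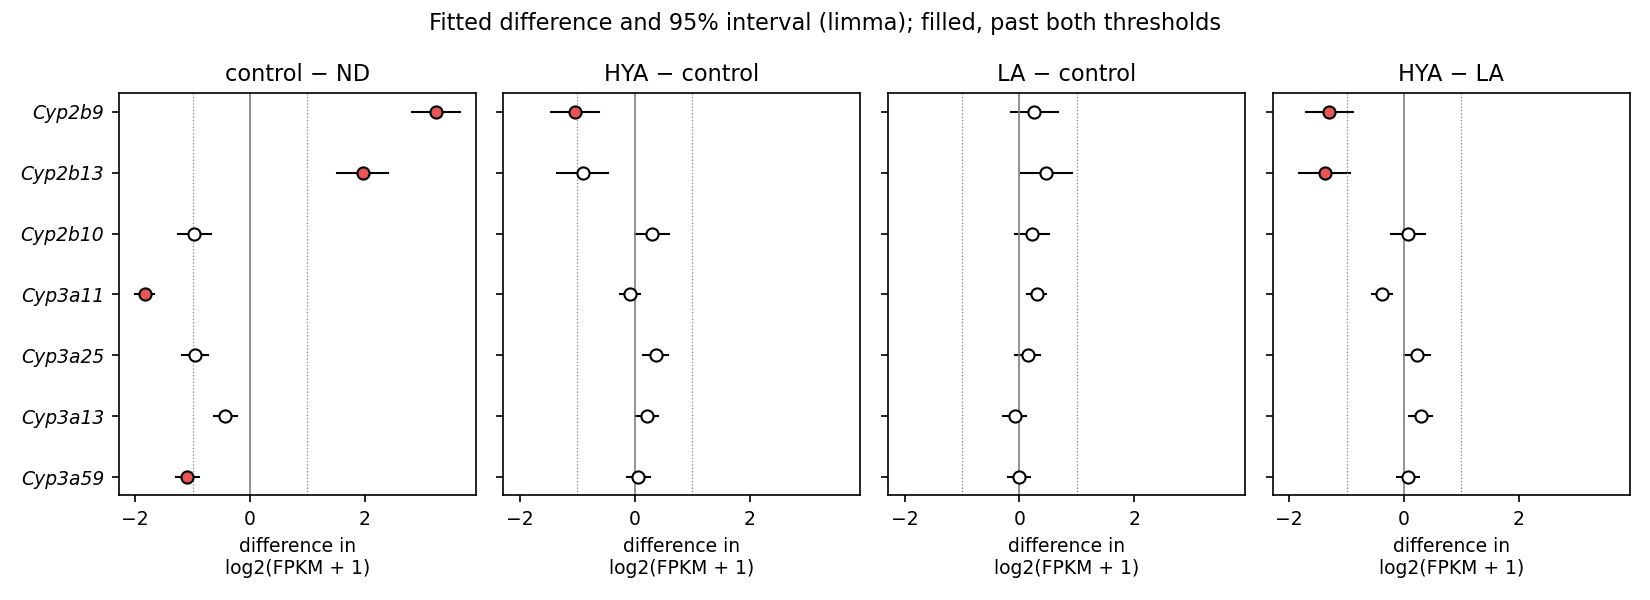
Difference in log2(FPKM + 1) between groups (x axis) for 7 genes (rows) in 4 comparisons (panels), with 95% intervals from limma, n = 3 mice per group. Filled points pass both thresholds, namely 4 genes in control against ND, Cyp2b9 in HYA against control, none in LA against control, and Cyp2b9 and Cyp2b13 in HYA against LA.

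HYA and LA were the only pair of related compounds, given at 1% each for the same time, and they differ by the hydroxyl group of HYA and the double bond lost with it. With HYA, Cyp2b9 was lower than with LA by 1.30 on the log2 scale (difference -1.30, SE 0.19, adjusted p = 0.0317), at 40.9 ± 9.97 against 100.2 ± 4.7 FPKM. Cyp2b13 was lower as well (difference -1.38, SE 0.20, adjusted p = 0.0317), at 1.88 ± 0.90 against 6.29 ± 0.98 FPKM. The ratios of means were 2.45 and 3.34, and every HYA-treated mouse was below every LA-treated mouse. Of all genes 0.0812% were called lower and 0.0271% higher in this comparison.

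Both calls were sensitive to single mice. They were lost without HYA mouse 1, HYA mouse 2, LA mouse 1, LA mouse 2 or LA mouse 3, and held without HYA mouse 3. The loss was not particular to these genes. Without HYA mouse 2, LA mouse 1 or LA mouse 2, 0 of all genes were called in either direction. Without LA mouse 3 there were 2 higher and 2 lower, and without HYA mouse 1 there were 4 and 4. The differences in these fits ran from -1.49 to -1.17 for Cyp2b9 and from -1.61 to -1.16 for Cyp2b13. The adjusted p over all alternatives ran from 0.00473 to 0.163 and from 0.0212 to 0.119.

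The other 5 genes were not called between HYA and LA. Cyp3a11 differed by -0.38 (95% interval -0.55 to -0.22, adjusted p = 0.0597), with 252 ± 15 FPKM with HYA and 330 ± 21 with LA and no overlap. Cyp3a13 differed by 0.29 (0.09 to 0.49, adjusted p = 0.130) with no overlap either. Ranges apart were seen in 14.8% of all genes as higher and 10.4% as lower. The intervals for Cyp3a25 (0.22, -0.0020 to 0.44), Cyp3a59 (0.07, -0.13 to 0.27) and Cyp2b10 (0.07, -0.22 to 0.37) took in 0, which leaves room for differences up to those limits.

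Summed over the members, Cyp3a came to 1412 ± 64 FPKM on ND, 511 ± 12 in control, 559 ± 31 with HYA and 592 ± 13 with LA. Within these sums the share of Cyp3a11 was 67.8% ± 1.6 on ND, 52.3% ± 3.9 in control, 45.2% ± 1.8 with HYA and 55.7% ± 4.4 with LA. The ratio of Cyp3a11 to Cyp3a25 was 2.73, 2.49 and 2.38 in ND-fed mice, 1.43, 1.17 and 1.57 in control mice, 1.10, 0.950 and 0.980 with HYA, and 1.93, 1.40 and 1.34 with LA. It was lowest in the 3 HYA-treated mice, with no overlap with any other group.

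The Cyp2b sum was 10.6 ± 1.9 FPKM on ND, 89.1 ± 14.4 in control, 43.7 ± 10.9 with HYA and 107 ± 6 with LA. Cyp2b9 made up 76.0% ± 7.1 of it on ND and 93.4% to 94.5% on average in the HFD groups, with Cyp2b10 highest on ND.

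**Figure D3:**
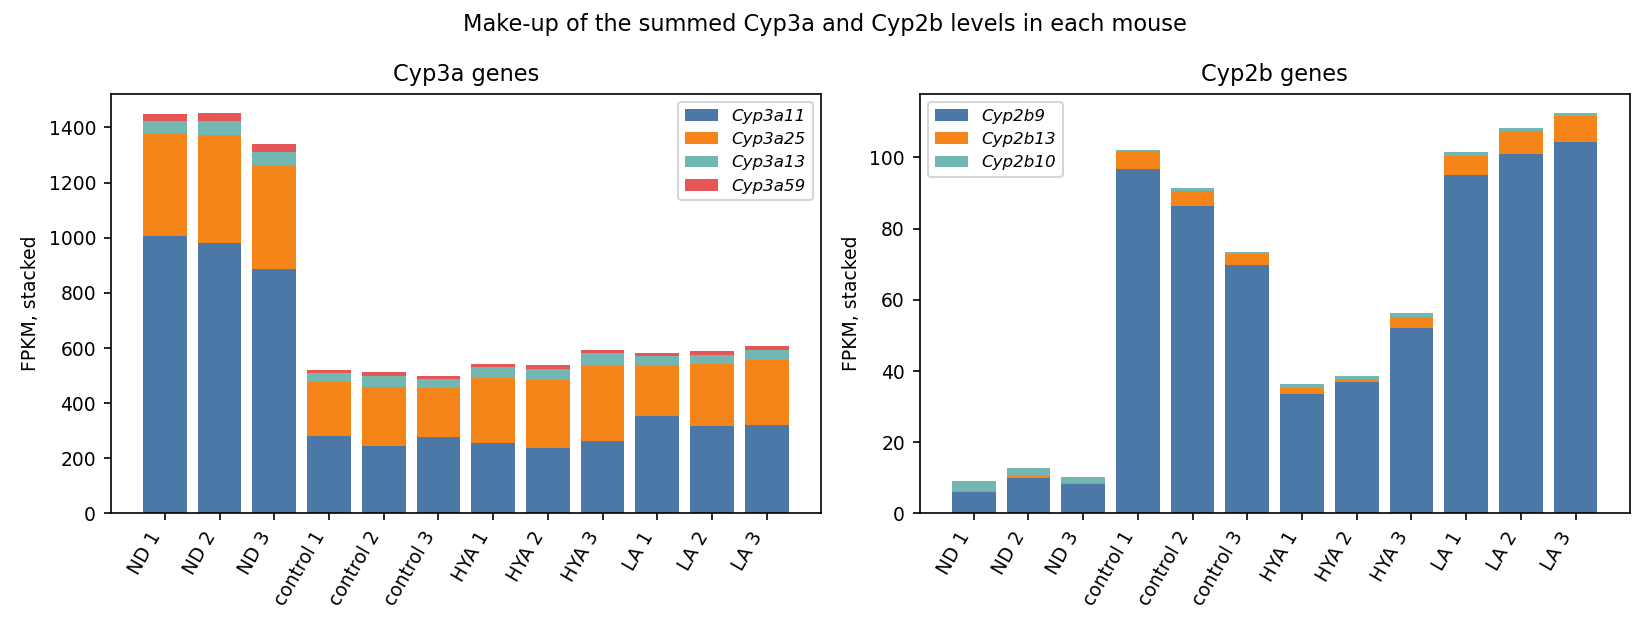
FPKM of the Cyp3a genes (left) and Cyp2b genes (right), stacked by gene, for each of the 12 mice (x axes), both y axes linear from 0. The Cyp3a sum is high in the 3 ND-fed mice and carried by Cyp3a11, and the Cyp2b sum is almost wholly Cyp2b9 on HFD and lower in the 3 HYA-treated mice.

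The profiles of the 7 genes over the 12 mice were compared by the root mean square difference of their standardised log2 levels, where 0 means the same profile. The closest pair was Cyp2b9 and Cyp2b13 (0.259), followed by Cyp3a25 and Cyp3a59 (0.341) and Cyp3a11 and Cyp3a59 (0.347). Cyp2b10 was closest to Cyp3a11 (0.459) and far from Cyp2b9 (1.86), although it lies in the Cyp2b cluster. The points share libraries and diet groups, and these values are a description.

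Among 9966 other genes tested, those most like Cyp2b9 were Exoc4 (0.167), Samd9l (0.175) and Cyp2a22 (0.179), and Cyp2a22 had 1.24 FPKM on ND, 8.99 in control, 4.38 with HYA and 8.46 with LA. Those most like Cyp3a11 included Cyp2c55 (0.189) and Adam11 (0.192). Those most like Cyp2b10 were Tcaim (0.212), Abca1 (0.278) and Usf3 (0.282).

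Neither receptor above these genes was called in any comparison. PXR (Nr1i2) had 31.4, 32.7 and 32.7 FPKM on ND, 26.0, 30.3 and 22.5 in control, 23.1, 24.5 and 31.9 with HYA, and 23.5, 24.3 and 24.8 with LA. Control mice were below ND-fed mice with no overlap, but the difference of -0.30 (95% interval -0.56 to -0.03, adjusted p = 0.0766) was not called. CAR (Nr1i3) spread from 28.7 to 52.8 FPKM in control and from 35.7 to 59.99 in HYA-treated mice, against 47.3 to 50.5 on ND and 27.3 to 45.7 with LA.

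Of the 14 receptors and partners, all tested, 1 was called lower in control than in ND-fed mice, where 1.63% of all genes were. It was Egfr, whose signalling holds CAR in the cytoplasm (difference -1.76, adjusted p = 0.00105, limma). None of the 14 was called in the other 3 comparisons. The difference of Nr1i2 was 0.01 (-0.26 to 0.27) and that of Nr1i3 0.34 (-0.20 to 0.87) between HYA and control. Rxra, the shared partner, had 91.3 ± 3.2 FPKM on ND, 79.9 ± 9.2 in control, 91.4 ± 5.0 with HYA and 75.5 ± 9.9 with LA, and was not called in any comparison.

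None of 9 genes of electron supply and haem synthesis was called in any of the 4 comparisons. By adjusted p alone 2 were higher and 5 lower in control against ND, where 16.2% and 19.1% of all genes were. Por, the reductase that passes electrons to the P450 enzymes of the endoplasmic reticulum, had 60.02, 90.6 and 30.2 FPKM in the 3 control mice. It had 40.1, 73.4 and 108 FPKM in the 3 HYA-treated mice. The range from lowest to highest mouse within either of these groups was wider than any difference between group means. Cpox, an enzyme of haem synthesis, passed the adjusted p alone in control against ND (-0.31, adjusted p = 0.00113) and in HYA against control (0.23, adjusted p = 0.0479).

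The other CAR and PXR targets numbered 39, of which 36 were tested. In control against ND, 4 rose and 9 fell, against 2.25% and 1.63% of all genes, with a median difference of -0.36 against -0.04 for all genes. Cyp2c54 and Cyp2c29, P450 enzymes of the Cyp2c family, fell by 4.27 and 2.59, Ces2a, a carboxylesterase, fell by 2.76, and Gstm3, a glutathione transferase, rose by 1.90 on the log2 scale (adjusted p from 6.32e-07 to 2.13e-06, limma). Both directions thus occurred among the other targets too.

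In HYA against control, 3 of the 36 rose and 2 fell, against 0.162% and 0.144% of all genes. Cyp2c54 rose by 2.40 (adjusted p = 0.0129) and Cyp2c50 by 1.38 (0.0168), while Gstm3 fell by 1.04 (0.0129) and Gsta1 fell by 1.27 (0.0304). Cyp2c54 had 187 ± 14 FPKM on ND, 9.32 ± 3.79 in control, 51.1 ± 9.9 with HYA and 11.1 ± 1.3 with LA. Without HYA mouse 2 no gene of the list was called in either direction, and 0 of all genes were. Without control mouse 2 there were 6 higher in the list. Of its lower genes none was left without control mouse 3 or HYA mouse 3, and 1 without control mouse 1 or HYA mouse 1. In HYA against LA only Cyp2c54 was called, and it was higher by 2.09 (adjusted p = 0.0183), a call that was lost without HYA mouse 2, LA mouse 1 or LA mouse 2. The number of the list called higher was 3 with a replicate block, 2 with only the 2 groups or voom and 0 with no filter, and 1 was called lower with TPM, voom, only the 2 groups, adjusted p alone or without HYA mouse 1.

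Sex-biased liver genes were listed because 2 of the members that rose, Cyp2b9 and Cyp2b13, are of that kind. Of 31 other female-biased genes, 18 were tested, and in control against ND 9 rose and 2 fell, against 2.25% and 1.63% of all genes, with a median of 0.95 against -0.04 for all genes. The 4 with the lowest p rose, namely Cyp17a1, a steroid hydroxylase (4.49), Abcd2, a peroxisomal transporter (1.64), Slc22a27, an organic anion transporter (2.51), and Cyp2c38 (1.16). In HYA against control 1 of the 18 was called, where 0.162% of all genes were called higher. It was Sult2a8, a sulfotransferase, which rose by 1.57 (adjusted p = 0.0323, limma), and that call was lost without control mouse 1 or 3 or any 1 HYA mouse. Its means were 252 FPKM on ND, 65.1 in control, 180 with HYA and 78.7 with LA, opposite in direction to those of Cyp2b9. The sex bias of the listed genes could not be tested in these male mice. Cyp17a1 had 59.6 ± 9.6 FPKM in control and 42.5 ± 7.8 in HYA-treated mice.

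Of 31 male-biased genes, 29 were tested, and in control against ND 23 fell and none rose, against 1.63% and 2.25% of all genes, with a median of -1.91. Among them were Serpina1e, a protease inhibitor (-6.83), Cyp2d9 (-1.98), Susd4 (-1.91) and Cyp4a12b, a fatty acid hydroxylase (-2.98). In HYA against control 7 of the 29 rose and none fell, against 0.162% and 0.144% of all genes, including Cyp4a12a (1.35, adjusted p = 0.0168), Serpina1e (1.56, 0.0271), Slco1a1, a transporter of organic anions (2.30, 0.0271), and Mup11, a urinary protein (2.55, 0.0292). That number was 0 without HYA mouse 2, 1 without HYA mouse 3 and 3 without HYA mouse 1 or control mouse 3. It was 2 when control mouse 1 was left out and 11 when control mouse 2 was. With no filter on low values it was 1, and in a fit of only the 2 groups it was 0. Without HYA mouse 2 and with only the 2 groups, 0 of all genes were called in either direction. In HYA against LA, Serpina1e alone was called (1.81, adjusted p = 0.0350), and the call was lost in every fit without a single mouse but that without HYA mouse 1. The number of the list called higher was 6 with a replicate block, 7 with only the 2 groups, 5 with voom, 2 by adjusted p alone or without HYA mouse 1, and 0 with no filter.

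**Figure D4:**
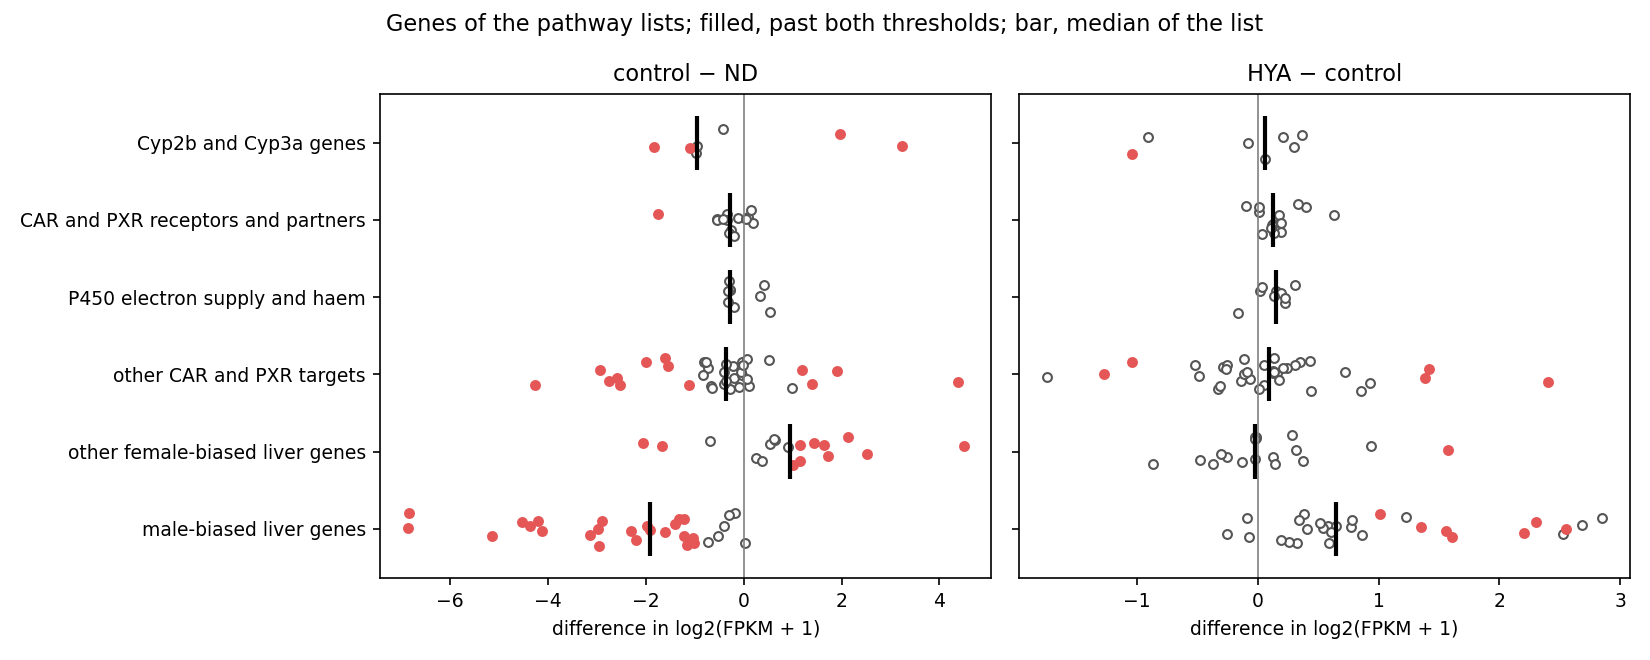
Difference in log2(FPKM + 1) (x axes) of each tested gene in 6 lists (rows) for control minus ND (left) and HYA minus control (right), with filled points past both thresholds and the median of each list as a bar. On the left the male-biased list lies mostly below 0 and the female-biased list mostly above, Cyp2b9 and Cyp2b13 stand apart from the other 5 Cyp2b and Cyp3a genes, and on the right the medians lie nearer to 0.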

How the data were processed

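Liver RNA of 12 mice was sequenced by a commercial provider on an Illumina HiSeq instrument. The authors deposited FPKM per gene and mouse. The submitters' processing notes name fastp, HISAT2 2.0.5, featureCounts 1.5.0-p3 and GRCm38, whereas the methods name TPM, but the columns summed to unequal totals, as FPKM does. The annotation release, the strand and the handling of shared reads are not given in the sources used here. FPKM times gene length gave whole steps for 100% of values of up to 2000 fragments (tolerance 0.02 steps), read as fragments. These cover counting error only.

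Genes averaging 1 FPKM or more were fitted with limma 3.58.1 in R 4.3.3 (trend, two-sided, pseudocount 1, all 12 mice, Benjamini-Hochberg over 11083 genes), after a test on simulated data. Whether mice shared litters is not stated. Each mouse was treated as independent, and the p-values rest on the spread between mice within groups, pooled over the 4 groups. Named were all 10 genes, the other Cyp2b and Cyp3a rows, Nr1i2, Nr1i3, Rxra and Por, up to 4 called genes with the lowest p per list (with none called, the gene of lowest p), and the 3 genes most alike in profile to Cyp2b9, Cyp2b10 and Cyp3a11, of which 1 is not reported here. Members and lists were chosen with earlier results of these data known. Promoters came from RefSeq GRCm38.p6. Alternatives were TPM, size factors, a pseudocount of 0.1, other filters, a replicate block, only the 2 groups compared, adjusted p alone, voom on fragments and leaving out each mouse. Voom took the totals implied by the values as library sizes, so it kept the scaling of the deposited values. The size factors were 1.005 to 1.008 in the 12 mice, so that this alternative was nearly the main fit by construction and adds no support.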

Additional observations from a re-analysis of the deposited data

Results flagged for a closer look

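The responses to HYA and to LA, each set against the same 3 control mice, differed for 2 of the 7 tested genes. The difference of the responses, which is the direct contrast of HYA with LA, was -1.30 for Cyp2b9 and -1.38 for Cyp2b13 on the log2(FPKM + 1) scale (adjusted p = 0.0317 for each, limma). Of all genes 0.0812% were called lower in that contrast. All 3 HYA-treated mice were below all 3 LA-treated mice for both genes. Against control, Cyp2b9 differed by -1.04 with HYA and by 0.26 with LA, and Cyp2b13 by -0.91 and 0.47. Both calls between HYA and LA were lost in 5 of the 6 fits that left out 1 mouse and with no filter on low values. With no filter, and without HYA mouse 2, LA mouse 1 or LA mouse 2, 0 of all genes were called in that contrast.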

How the results depend on the processing

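With 3 mice a group, calls near the threshold moved with single mice and with the settings. Of 7 tested genes, 2 were called higher in control against ND under every alternative, and the number called lower was 2 (with TPM Cyp2b10 in place of Cyp3a59), but 3 with a pseudocount of 0.1 or voom, 5 by adjusted p alone and 2 to 4 on leaving out single mice. In HYA against control 1 was lower, but 2 with TPM, by adjusted p alone or with voom, 0 with no filter or only the 2 groups compared, and 0 to 2 on leaving out mice. In HYA against LA 2 were lower, but 0 with no filter, 1 with only the 2 groups compared, and 0 to 2 on leaving out mice. LA against control gave no call among the 7 under any alternative. Of 392 refitted differences of the 7 genes, 359 kept direction and side of the threshold, 19 lost the call, 9 gained it and 5 changed sign. Of 700 for the other named genes 636 kept both, 52 lost the call and 12 changed sign. Both totals include the refits with size factors, which were near 1 in every mouse and so could hardly change a call. None of the sign changes was in a called difference. With TPM, Cyp3a59 was -0.056 in HYA against control and -0.045 against LA, Nr1i2 was -0.12 and -0.0027 in the same comparisons, and Rxra was 0.040 in control against ND. Leaving out mice gave -0.14 to 0.024 for Cyp3a13, -0.067 to 0.065 for Cyp3a59, -0.17 to 0.016 for Rxra and -0.32 to 0.11 for Nr1i3 in LA against control, -0.67 to 0.10 for Por in control against ND, -0.11 to 0.69 for Por and -0.13 to 0.11 for Nr1i2 in HYA against control, and -0.024 to 0.20 for Nr1i2 in HYA against LA. The cause was not tested. Over all genes, 249 were called higher and 181 lower in control against ND, but 573 and 138 with TPM, 461 and 231 with a pseudocount of 0.1 and 1035 and 326 with voom. In HYA against control the numbers were 18 and 16, but 18 and 33 with TPM, 4 and 7 with no filter, 0 and 0 with only the 2 groups compared, and 24 and 83 with voom. In HYA against LA they were 3 and 9, but 5 and 22 with TPM, 0 and 0 with no filter, 15 and 10 with only the 2 groups compared, and 15 and 38 with voom. Groups share replicate numbers, but nothing says that a number joins mice. Same-numbered mice correlated at -0.396 to 0.294 in 18 pairs, 3 of them above 0.1, and 2 of 12 mice correlated best with their own number. With the replicate block the 7 genes gave 2 higher and 2 lower, 1 lower, 0, and 2 lower in the 4 comparisons, as without it, Cyp2b13 in HYA against control had an adjusted p of 0.0559 (limma), and all genes called in HYA against LA numbered 16 higher and 13 lower. Depth limits Cyp3a16 and Cyp3a44, which had fragments in 3 and 7 of 12 mice.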
